A study of Mus musculus with 6 samples.

Results

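The genes described here build the fibrous and interstitial extracellular matrix of the embryonic mouse kidney. They were chosen by name: every gene whose symbol begins with Col and a digit, apart from the Col4a genes of basement membranes, and 21 further matrix genes. Of the 8251 genes with a probe set of their own on the array, 45 met the rule, 26 of them collagens and 19 others. Fbn1 had no probe set of its own, and the probe set that reads Thbs1 is also assigned to Pald1, so neither gene was analysed here. Whole kidneys (metanephros) were taken at E14.5, days counted from mating. They were excised whole, and their RNA went through 1 round of amplification before hybridization to Affymetrix MG_U74Av2 arrays. The 4 wild-type samples, with strain given as CD-1, each pooled 2 kidneys. The 2 mutant samples carried Wnt4tm1Amc, with strain given as 129, and each pooled 8 to 10 kidneys from 4 to 5 embryos. Whether the mutant embryos carried 1 or 2 copies of the allele is not stated, and the protocol text of all 6 samples mentions CD-1 matings. Genotype, strain and pool size cannot be told apart in this design.

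Collagens are secreted triple helices. Types I, III and V assemble into fibrils, type VI forms beaded filaments around cells and fibrils, and the small leucine-rich proteoglycans lumican and decorin bind fibrils and control their spacing. Elastic fibres consist of an elastin core on a scaffold of fibrillin microfibrils and their associated proteins. In the developing kidney this matrix is made largely by the stroma, the mesenchyme between and around the nephrons, while nephron epithelia and vessels rest on basement membranes built from type IV collagen and laminins. Wnt4 is a secreted signal that the nephron progenitors need to form the first nephron epithelium. The study used the mutant, which lacks renal vesicles, to identify genes active in these early nephrons and in what develops from them.

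Median signals per array lay between 172.69 and 191.03. The Wnt4 probe set read 699 to 946 on wild-type and 34.5 and 74.2 on mutant arrays, as the labels say. All 14 measured stroma markers and all 8 measured markers of nephron progenitors were bright enough to test, as were 6 of 7 markers of the ureteric bud. The exception was the receptor gene Ret, with a mean of 73.0 in wild-type and 8.34 in mutant kidneys.

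Matrix genes were more often higher than lower in the mutant kidneys. A probe set was tested when its signal exceeded the 40th percentile of its array on at least 2 arrays, and differences are mutant minus wild type in log2(signal + 16), a scale on which changes of dim genes come out too small. A gene counts as higher or lower at an adjusted p under 0.05 (limma, Benjamini-Hochberg adjustment over all 7981 probe sets tested). Of the 45 genes, 37 were tested, and 15 of these rose, 1 fell and 21 did not pass. All 37 exceeded the filter level on at least 2 wild-type arrays, so none was tested only through its mutant signal. Fmod exceeded it on 2 wild-type arrays and on no mutant array, so it was tested only through its wild-type signal. The 15 rises are 40.5% of the tested matrix genes and the 1 fall is 2.70%. Over all genes, with 1 probe set each, 5.13% were higher and 6.35% lower, and over all probe sets 4.65% and 6.11%. The median difference was 0.41 over the 37 matrix genes and 0.01 over all 6081 genes tested. Both mutant arrays lay above all 4 wild-type arrays for 23 of the 37 and below them for 3, against 19.3% and 19.9% of all genes. Without mutant replicate 2, 9 matrix genes were higher, and without mutant replicate 1, 10 were. Over all probe sets, 114 and 133 were higher in these fits, against 371 with all arrays. The fall, of Col18a1, was called in neither fit.

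**Figure D1:**
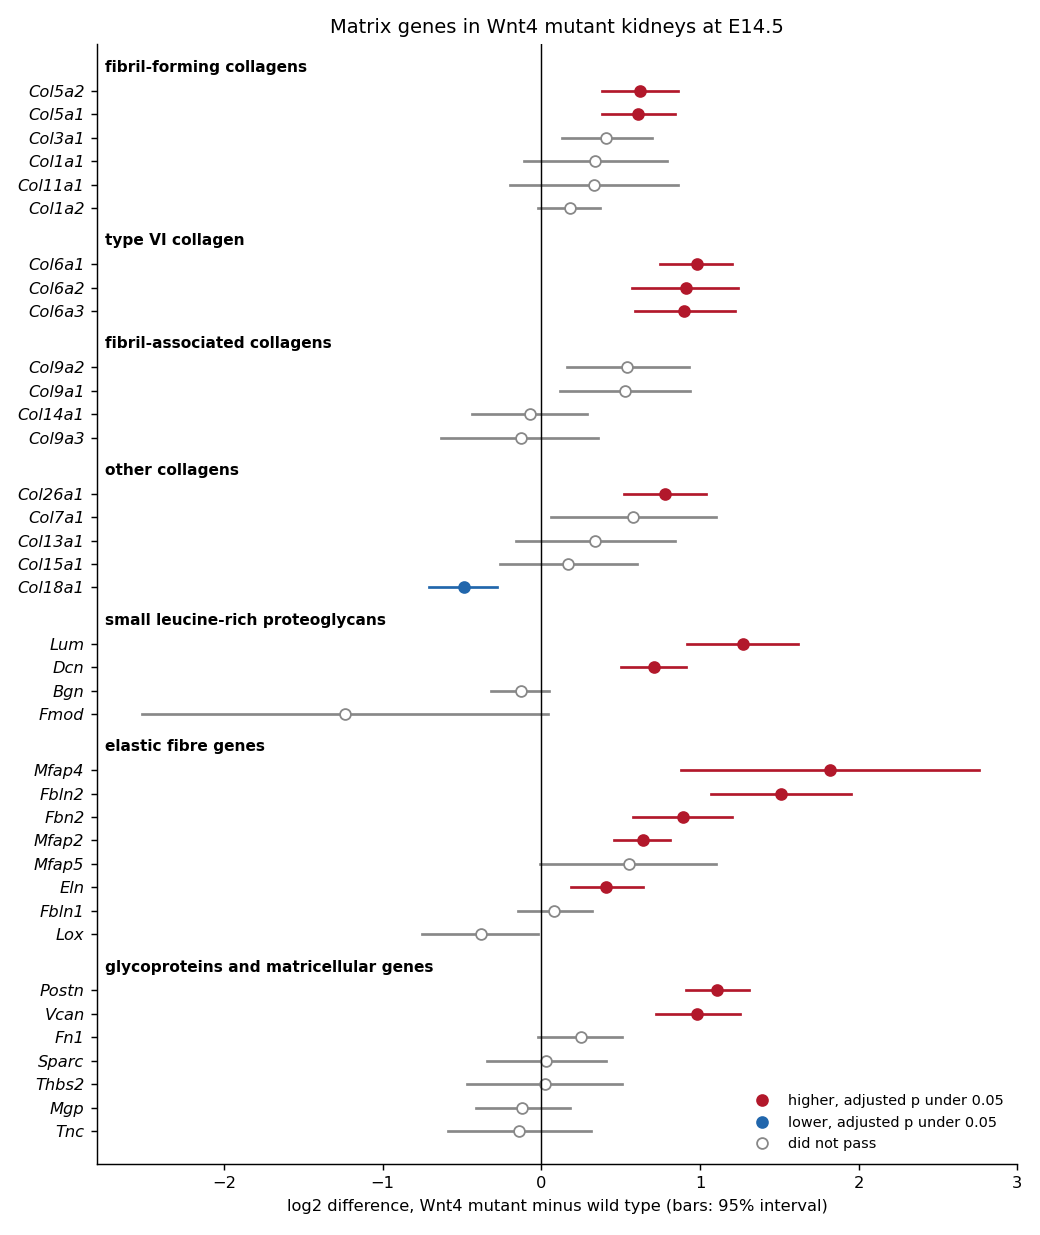
Log2 difference (horizontal axis, mutant minus wild type) of each of the 37 tested matrix genes, grouped by role, with 95% intervals from limma over 4 wild-type and 2 mutant arrays. Filled points passed the threshold: 15 lie to the right of 0 and 1, Col18a1 at -0.49, to the left. Open points did not pass.

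The matrix genes were shifted on both mutant arrays. Set against each gene's wild-type mean, the median deviation of the 37 genes was 0.40 on mutant replicate 1 and 0.43 on mutant replicate 2. On wild-type arrays it was 0.08, -0.06, 0.06 and -0.08 in replicates 1 to 4. The number of genes above the wild-type mean was 29 and 28 on the mutant arrays and 29, 14, 23 and 10 on the wild-type arrays. Wild-type replicate 1 thus had as many genes above that mean as mutant replicate 1, with a smaller median deviation. Matrix genes were thus slightly brighter in wild-type replicates 1 and 3 than in 2 and 4, by less than the distance to either mutant array. Over all tested probe sets the same median stayed between -0.010 and 0.020 on the 6 arrays.

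**Figure D2:**
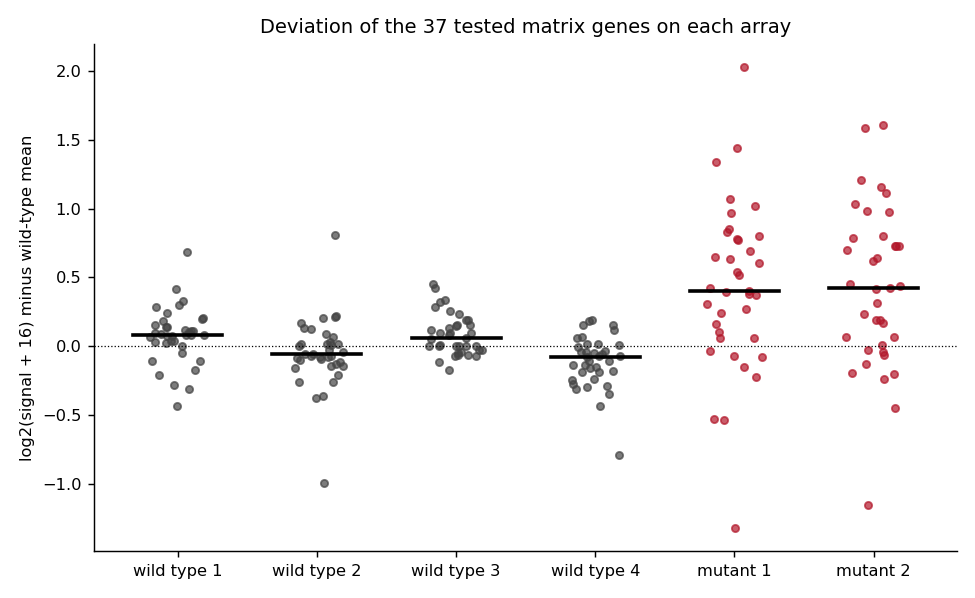
Deviation of each tested matrix gene from its wild-type mean, in log2(signal + 16) (vertical axis), on each of the 6 arrays. Each point is a gene and each bar the median of the 37, at -0.08 to 0.08 on wild-type and 0.40 and 0.43 on mutant arrays.

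Among the fibril-forming collagens, both type V chains rose and the type I chains did not pass. Type V collagen sits inside the fibril and limits its thickness. Wild-type replicates 1 to 4, in that order throughout, had Col5a2 signals of 2113, 2019, 2112 and 1752, and the mutant replicates 2910 and 3245. Col5a1 read 1068, 931, 971 and 919, and 1486 and 1499 in the mutant. Neither gene's groups overlapped. The log2 differences were 0.62 ± 0.11 (SE) for Col5a2 (limma, adjusted p = 0.00679) and 0.61 ± 0.10 for Col5a1 (adjusted p = 0.00556). Without mutant replicate 2 the adjusted p was 0.103 for Col5a2 and 0.0733 for Col5a1. Without mutant replicate 1 it was 0.0399 for Col5a2, still past the threshold, and 0.0636 for Col5a1. Over all alternatives it ran from 0.00228 to 0.103 for Col5a2 and from 0.00225 to 0.0733 for Col5a1. A second Col5a1 probe set had 0.36 (adjusted p = 0.219).

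Type I collagen, the main fibril protein of most connective tissue, is made of chains from Col1a1 and Col1a2. Col1a1 read 9345, 5701, 8737 and 6534 in the wild type and 10622 and 8362 in the mutant, so the groups overlapped. Col1a2 read 5547, 4933, 5002 and 5470, against 5840 and 5983 in the mutant, which lay just above. The differences were 0.34 (95% interval -0.11 to 0.79, adjusted p = 0.320) and 0.18 (-0.02 to 0.37, adjusted p = 0.226). A second probe set gave 0.23 for Col1a1 (adjusted p = 0.160) and 0.29 for Col1a2 (adjusted p = 0.269), and neither gene passed under any of the 17 alternatives. At that Col1a1 probe set the groups did not overlap, with 4706 to 5638 in the wild type and 5694 and 6092 in the mutant. At that of Col1a2 they did, with 505 to 673 and 835 and 670. At the brightest probe sets the interval of Col1a1 includes a rise as large as that of the type V chains, and that of Col1a2 does not. At the second probe sets it was the other way round, with intervals of 0.02 to 0.44 for Col1a1 and -0.06 to 0.64 for Col1a2. No test compared the types.

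Col3a1, the chain of type III collagen, which mixes with type I in pliable tissue, gave different answers at its 3 probe sets. The brightest read 3992, 3265, 3745 and 2921 in the wild type and 4571 and 4645 in the mutant, a difference of 0.41 (0.13 to 0.70) that did not pass (adjusted p = 0.0703). The next read 876, 633, 965 and 799, against 1448 and 1728, and rose by 0.95 (adjusted p = 0.00751), while the dimmest had 0.72 (adjusted p = 0.0863). The mutant arrays lay above all wild-type arrays at each of them. Averaged over its probe sets, Col3a1 rose by 0.70 (adjusted p = 0.0148), and with array weights by 0.36 (adjusted p = 0.0413). Over all alternatives its adjusted p ran from 0.0148 to 0.307. Col11a1, a minor fibril chain best known from cartilage, had 0.33 (adjusted p = 0.429).

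All 3 measured chains of type VI collagen rose, and by similar amounts. Col6a1 read 1480, 1253, 1485 and 1351 in the wild type and 2737 and 2756 in the mutant. Col6a2 read 750, 725, 756 and 553, and 1414 and 1211 in the mutant. Col6a3 read 1205, 908, 1070 and 1218, and 1879 and 2257 in the mutant. For each chain the lower mutant array stood well clear of the highest wild-type array. The differences were 0.98 ± 0.10 (SE, adjusted p = 5.39e-04), 0.91 ± 0.15 (adjusted p = 0.00556) and 0.90 ± 0.14 (adjusted p = 0.00423), or 1.97-fold, 1.87-fold and 1.87-fold. A second Col6a1 probe set rose by 0.99 (adjusted p = 0.0147). Col6a1 passed under all 17 alternatives. Col6a2 missed the threshold without mutant replicate 1 (0.80, adjusted p = 0.0794) and Col6a3 without mutant replicate 2 (0.77, adjusted p = 0.0705), the largest adjusted p of each over the alternatives; the smallest were 0.00158 and 0.00117.

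**Figure D3:**
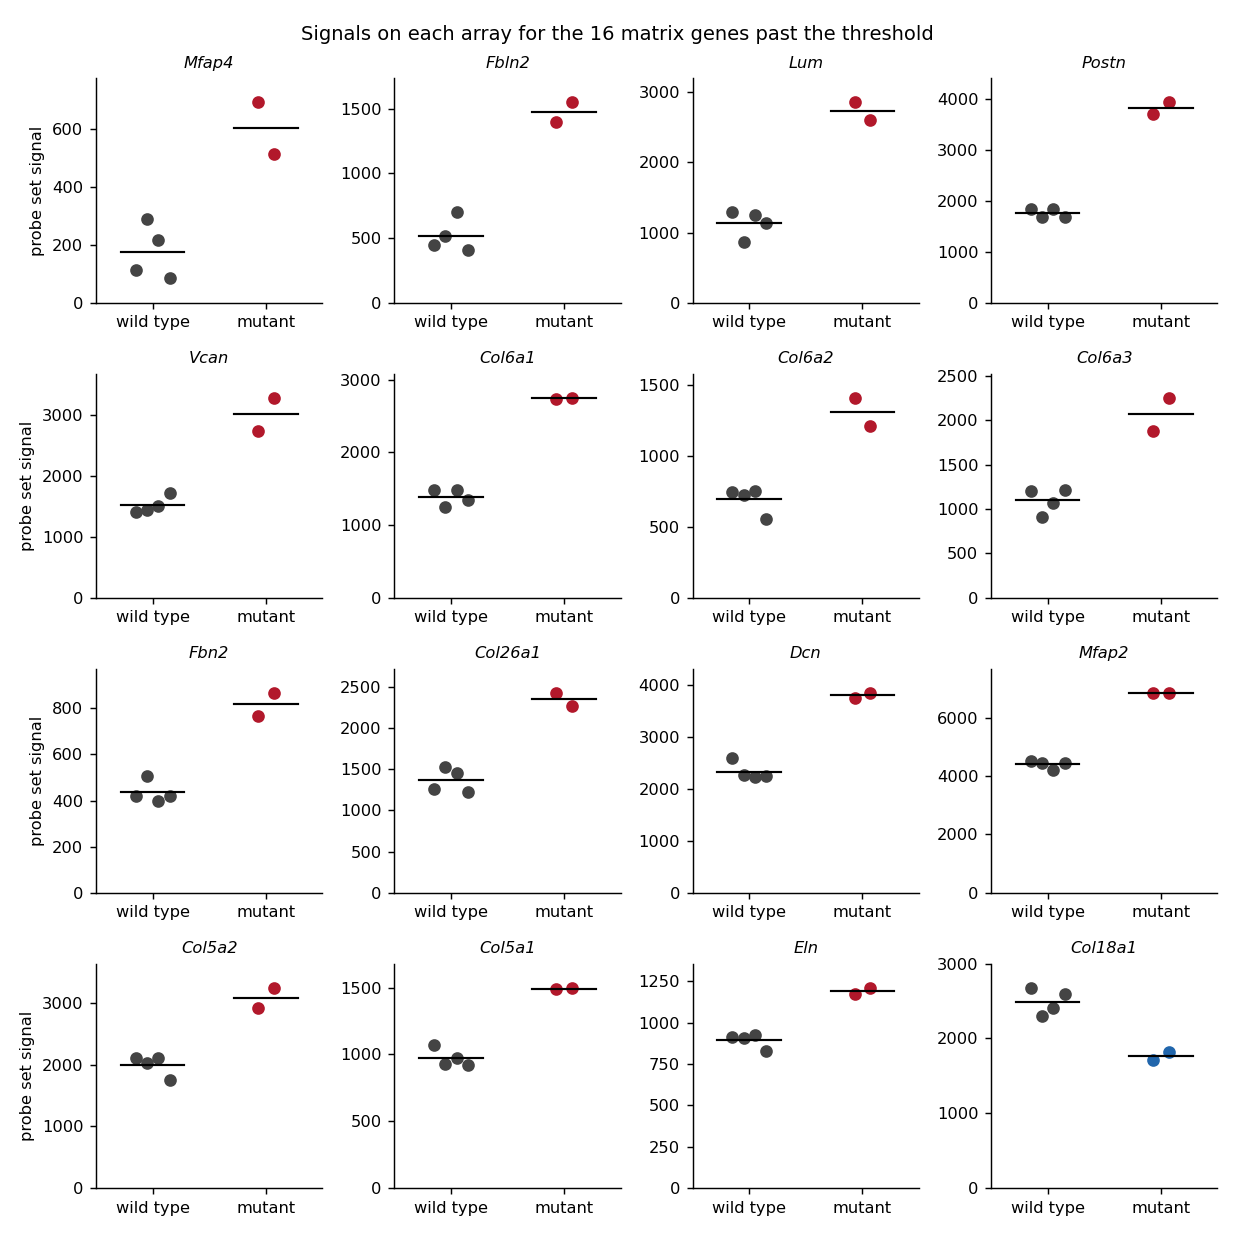
Probe set signal (vertical axis, linear, starting at 0) on each array for the 16 matrix genes past the threshold, in order of their difference. Grey points are the 4 wild-type arrays, coloured points the 2 mutant arrays and bars the group means. In all 16 panels the groups do not overlap, which a call itself favours.

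Col6a1 and Col6a2 are next to each other among the protein-coding genes of chromosome 10, and Col6a3 lies on chromosome 1. Other neighbouring pairs among the matrix genes were Dcn and Lum (chromosome 10), Col3a1 and Col5a2 (chromosome 1), and Col9a1 and Col19a1 (chromosome 1), of which Col19a1 was too dim to test. Promoter windows are shown for the type VI chains, which rose alike, for Postn, the matrix gene with the smallest adjusted p, and for Col18a1, the gene that fell. They come from RefSeq (GRCm38.p6), run 5′ to 3′ on the gene's strand from 250 bases before to 50 after the start of the gene, and were found for 28 of the 45 genes. Capitals mark matches on either strand to 5 motifs. The TATA box was searched as TATAAA and the CCAAT box by those letters. The GC box was searched as GGGCGG and the Smad box as CAGAC. The core of the M-CAT element, which TEAD factors bind, was searched as CATTCC.
Col6a1 (chr10:76725995-76726294, minus strand): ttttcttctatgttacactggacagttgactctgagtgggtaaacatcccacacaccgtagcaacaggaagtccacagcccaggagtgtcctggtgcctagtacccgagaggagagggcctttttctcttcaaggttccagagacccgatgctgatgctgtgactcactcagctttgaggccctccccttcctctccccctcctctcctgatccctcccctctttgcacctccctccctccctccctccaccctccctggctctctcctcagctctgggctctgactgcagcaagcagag
Col6a2 (chr10:76623581-76623880, minus strand): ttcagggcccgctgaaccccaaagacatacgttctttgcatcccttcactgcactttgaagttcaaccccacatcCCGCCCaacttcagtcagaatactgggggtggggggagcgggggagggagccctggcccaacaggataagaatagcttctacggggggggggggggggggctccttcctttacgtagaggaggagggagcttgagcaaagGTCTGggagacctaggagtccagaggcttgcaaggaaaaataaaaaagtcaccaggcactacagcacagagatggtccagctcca
Col6a3 (chr1:90843922-90844221, minus strand): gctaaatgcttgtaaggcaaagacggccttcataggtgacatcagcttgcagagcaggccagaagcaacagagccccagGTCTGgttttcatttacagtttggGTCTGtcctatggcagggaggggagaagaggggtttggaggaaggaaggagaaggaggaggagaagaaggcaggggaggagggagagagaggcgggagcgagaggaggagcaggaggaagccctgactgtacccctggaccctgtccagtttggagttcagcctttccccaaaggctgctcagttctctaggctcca
Postn (chr3:54359017-54359316, plus strand): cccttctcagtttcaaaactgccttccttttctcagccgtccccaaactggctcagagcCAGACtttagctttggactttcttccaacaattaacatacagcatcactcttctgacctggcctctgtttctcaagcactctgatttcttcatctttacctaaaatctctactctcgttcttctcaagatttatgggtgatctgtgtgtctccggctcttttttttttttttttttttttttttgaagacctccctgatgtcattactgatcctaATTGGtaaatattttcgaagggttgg
Col18a1 (chr10:77166481-77166780, minus strand): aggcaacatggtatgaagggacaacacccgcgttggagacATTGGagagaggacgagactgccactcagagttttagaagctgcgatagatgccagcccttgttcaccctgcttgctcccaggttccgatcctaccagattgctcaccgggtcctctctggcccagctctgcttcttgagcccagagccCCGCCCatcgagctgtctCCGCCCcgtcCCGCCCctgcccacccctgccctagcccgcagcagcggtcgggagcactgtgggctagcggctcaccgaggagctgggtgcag

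None of the 5 motifs was in all 3 type VI windows, and CAGAC was in 2 of them. The Col6a1 window held none of them, that of Col6a2 held GGGCGG once and CAGAC once, and that of Col6a3 held CAGAC 2 times. The Postn window held CCAAT and CAGAC once each. The Col18a1 window held GGGCGG 3 times and CCAAT once. In 8 windows of genes that rose, TATAAA was found in 0, CCAAT in 3, GGGCGG in 4, CAGAC in 5 and CATTCC in 1. Over all 27025 genes with a window the shares were 14.2%, 38.0%, 35.9%, 49.7% and 14.7%. These are matches of letters in short windows, given as a description.

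The fibril-associated collagens, which decorate fibrils without forming them, were either too dim to test or did not pass. Of 7 measured, 3 (Col12a1, Col19a1 and Col22a1) were not tested and 4 did not pass, with none called by limma in either direction and 2 higher at an unadjusted p under 0.05. Those were the type IX chains Col9a1 (227 to 326 on wild-type arrays, 360 and 426 on mutant arrays) and Col9a2 (280 to 342, against 395 and 550). Their differences were 0.53 (0.12 to 0.94, adjusted p = 0.0966) and 0.54 (0.16 to 0.93, adjusted p = 0.0771). Col9a2 passed with array weights. The remaining type IX chain, Col9a3, had -0.13 (adjusted p = 0.747), and Col14a1 had -0.07 (adjusted p = 0.820). Type IX collagen is best known from cartilage, as is type II. Col2a1, the type II chain, read 41.3, 36.2, 30.4 and 14.8 in the wild type and 63.6 and 12.3 in the mutant, all below the filter level.

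Of the other collagens, Col26a1 rose and Col18a1 fell. Col26a1 read 1256, 1532, 1449 and 1222 in the wild type and 2429 and 2264 in the mutant. Its difference was 0.78 ± 0.12 (SE, adjusted p = 0.00320), and its largest adjusted p over the alternatives, from 8.43e-04 upward, was 0.0514, without mutant replicate 1. Col18a1 encodes a collagen of basement membrane zones that carries heparan sulfate and is cut to release endostatin. It read 2679, 2298, 2405 and 2591 in the wild type and 1711 and 1816 in the mutant. The groups did not overlap, with a difference of -0.49 ± 0.09 (adjusted p = 0.0117). Its further tested probe sets had -0.51 (adjusted p = 0.0268), -0.47 (adjusted p = 0.0567) and -0.56 (adjusted p = 0.0746), and at each the groups stood apart in the same direction. Without mutant replicate 1 or 2 the adjusted p of the brightest probe set was 0.133 and 0.0852, and without a variance trend 0.0535, out of a range of 0.00409 to 0.133. Beside it, the type IV chains Col4a1 and Col4a2, the network collagen of basement membranes, fell by 0.47 and 0.66 (adjusted p = 0.0233 and 0.0134).

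Col7a1, which anchors epithelia to the matrix below them, had 0.58 (0.06 to 1.10, adjusted p = 0.145), with 271 and 365 in the mutant above 162 to 248 in the wild type. Col13a1 and Col15a1 had 0.34 and 0.17 (adjusted p = 0.372 and 0.633). Col8a1 just missed the filter. It read 38.1 to 70.9 in the wild type and 107 and 115 in the mutant, above the filter level on 1 array. With no filter its difference was 0.88 (adjusted p = 0.211). The other untested collagens, Col10a1, Col11a2 and Col17a1, exceeded the level on no array.

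**Figure D4:**
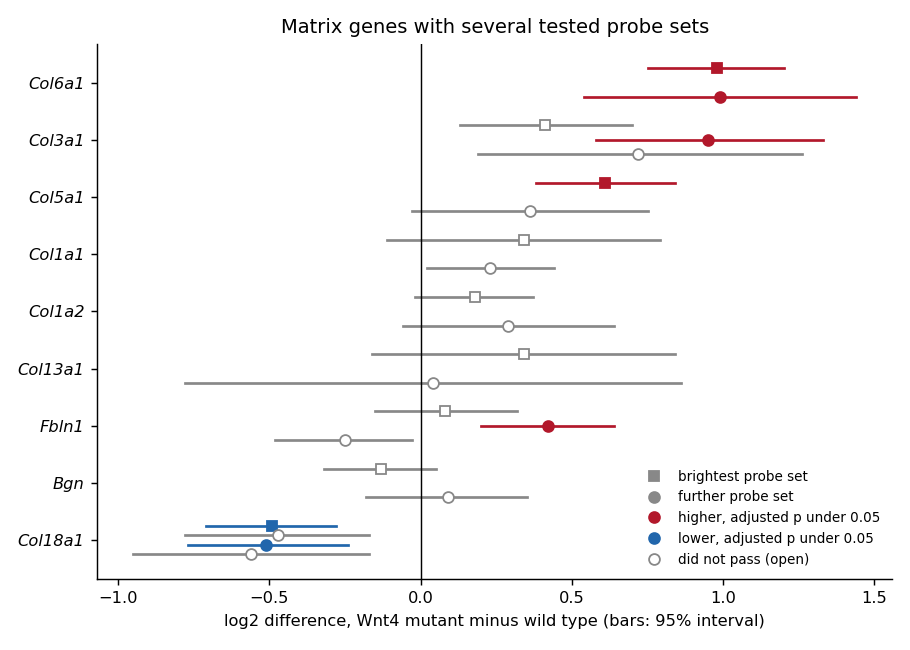
Log2 difference (horizontal axis, mutant minus wild type) with 95% intervals for matrix genes with more than 1 tested probe set. Squares are each gene's brightest probe set, and filled symbols passed the threshold. Both Col6a1 probe sets lie to the right of 0 and all 4 of Col18a1 to the left, while those of Fbln1 lie on both sides.

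The small leucine-rich proteoglycans split by gene. Lumican, Lum, read 1291, 871, 1250 and 1130 in the wild type and 2856 and 2608 in the mutant, more than 2 times the wild-type level. Decorin, Dcn, read 2594, 2265, 2227 and 2258, and 3765 and 3861 in the mutant. Neither gene's groups overlapped. Lum rose by 1.27 ± 0.15 (SE, adjusted p = 0.00116) and Dcn by 0.71 ± 0.09 (adjusted p = 0.00162), both also under each of the 17 alternatives. Biglycan, Bgn, the close relative of decorin, read 3064, 2982, 2980 and 2918, and 2845 and 2598 in the mutant. Its difference was -0.13 (-0.32 to 0.05, adjusted p = 0.345), or 0.09 at a second probe set (adjusted p = 0.701), so its interval excludes a rise of the size seen for decorin. Fibromodulin, Fmod, read 146, 34.7, 110 and 84.5, and 24.4 and 29.3 in the mutant. All its mutant signals lay below the wild type, near the low end of the array, and the difference of -1.24 did not pass (-2.52 to 0.04, adjusted p = 0.203).

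In the elastic fibre group 5 of 8 genes rose: Mfap4, Fbln2, Fbn2, Mfap2 and Eln. Fbln2, a fibulin that binds elastic fibres and basement membranes, read 448, 513, 699 and 409 in the wild type and 1401 and 1550 in the mutant. Fbn2, the fibrillin most prominent in embryonic microfibrils, read 419, 506, 399 and 419, and 767 and 868 in the mutant. Mfap2, a glycoprotein bound to microfibrils, read 4511, 4452, 4188 and 4438, and 6829 and 6851 in the mutant. Each rose without overlap, Fbln2 by 1.51 ± 0.19 (SE, 2.85-fold, adjusted p = 0.00156), Fbn2 by 0.89 ± 0.14 (adjusted p = 0.00396) and Mfap2 by 0.64 ± 0.08 (adjusted p = 0.00107). Fbln2 and Mfap2 passed under all alternatives. Fbn2 passed under all but 1, without mutant replicate 2 (0.80, adjusted p = 0.0679; range from 0.00112).

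Mfap4, another microfibril protein, had the largest difference of the matrix genes, at scattered wild-type signals that exceeded the filter level on only 3 arrays. It read 112, 288, 217 and 84.2 in the wild type and 693 and 514 in the mutant, a rise of 1.82 ± 0.41 (adjusted p = 0.0258). The call was lost without wild-type replicate 1 (1.67, adjusted p = 0.0639), without mutant replicate 1 (1.61, 0.199) or 2 (2.03, 0.113), and without a variance trend (0.0704), with 0.00777 as its smallest adjusted p. Its second probe set stayed below the filter level, at 29.2 ± 15.9 (SD, n = 4) and 15.9 ± 14.9 (SD, n = 2). Elastin itself, Eln, read 911, 909, 925 and 827, against 1174 and 1212 in the mutant. It rose by 0.41 ± 0.10 (adjusted p = 0.0312), the smallest of the 15 rises. This call did not survive leaving out wild-type replicate 1 or 3 (adjusted p = 0.0615 and 0.0535), mutant replicate 1 or 2 (0.165 and 0.224) or wild-type replicates 2 and 4 together (0.0520), a block on the replicate number (0.108), or a fit without a variance trend (0.0675). Its adjusted p ran from 0.0142 to 0.224 over the alternatives, and its difference from 0.37 to 0.44.

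The other elastic fibre genes did not pass. Lox, the enzyme that crosslinks collagen and elastin, read 496, 493, 496 and 379 in the wild type and 316 and 389 in the mutant, with a difference of -0.38 (-0.75 to -0.02, adjusted p = 0.170). Mutant replicate 2 lay within the wild-type range, above wild-type replicate 4 only. Mfap5 had 0.55 (adjusted p = 0.194), with both mutant arrays (190 and 247) above the wild type (122 to 185). Fbln1, a fibulin of several splice forms, depended on the probe set. Its brightest had 0.08 (adjusted p = 0.665), the next rose by 0.42 (1604 ± 125 to 2142 ± 21.7, adjusted p = 0.0286), and another had -0.25 (1119 ± 61.3 to 937 ± 40.7, adjusted p = 0.145). The mutant arrays lay above the wild type at the former of these and below it at the latter.

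Among the glycoproteins and matricellular genes, Postn and Vcan rose. Periostin, Postn, binds collagen and integrins in growing connective tissue. It read 1843, 1676, 1838 and 1694 in the wild type and 3704 and 3939 in the mutant, a rise of 1.11 ± 0.09 (SE, 2.16-fold, adjusted p = 1.42e-04). Versican, Vcan, a large proteoglycan that binds hyaluronan in loose embryonic matrix, read 1406, 1437, 1512 and 1722, and 2742 and 3293 in the mutant, a rise of 0.98 ± 0.12 (adjusted p = 0.00104). Both groups were well apart for each gene, and both rises passed under all alternatives. Over these, the difference ran from 1.05 to 1.15 for Postn and from 0.85 to 1.11 for Vcan.

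The 5 remaining genes of that group did not pass. Fibronectin, Fn1, read 1287, 1317, 1162 and 1054 in the wild type and 1487 and 1369 in the mutant, a difference of 0.25 (-0.02 to 0.51, adjusted p = 0.215). Sparc, a collagen-binding protein, read 4954, 5413, 5206 and 3456, and 4882 and 4712 in the mutant. Its groups overlapped and its difference of 0.03 (-0.34 to 0.41, adjusted p = 0.926) changed sign with the setting. Tenascin C, Tnc, read 224, 174, 212 and 245, and 190 and 193 in the mutant (-0.14, -0.59 to 0.31, adjusted p = 0.712). Thbs2 had 0.02 (-0.47 to 0.51) and Mgp, an inhibitor of calcification, -0.12 (-0.41 to 0.18), with adjusted p of 0.972 and 0.626. For each of these 5 genes, Fn1 included, the interval excludes a rise as large as that of Vcan.

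A few genes that process, degrade or bind this matrix were called. Over all genes 5.13% were higher and 6.35% lower, against which each list's share is given. Of 12 tested genes of collagen synthesis and crosslinking, 2 rose (16.7%), with a list median of 0.20. They were P4ha2, a prolyl hydroxylase subunit that stabilises the helix (0.57, adjusted p = 0.0256), and Bmp1, the proteinase that trims procollagen (0.52, adjusted p = 0.0149). None fell, and at an unadjusted p under 0.05 (limma) 4 were higher and none was lower. Of 9 genes of matrix turnover, Mmp11, a stromal metalloproteinase, rose by 0.92 (adjusted p = 0.00430), which is 11.1% of the list, with a list median of 0.47. Of 13 matrix receptors, the syndecan Sdc2 rose by 0.54 (adjusted p = 0.0187) and the dystroglycan gene Dag1, a laminin receptor, fell by 0.62 (adjusted p = 0.00424), or 7.69% each way, with a median of 0.09. The receptor and turnover calls lie near the share over all genes. At an unadjusted p under 0.05 (limma), 3 turnover genes were higher and 1 lower, and 3 receptors were higher and 2 lower. Of all 6081 genes, 801 were higher and 912 lower at that level.

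Basement membrane genes gave the opposite count to the interstitial matrix genes. Of 15 tested, 4 fell (26.7%, against 6.35% of all genes) and none rose, with a median of -0.09. At an unadjusted p under 0.05 (limma), 2 were higher and 6 lower. Besides the type IV chains, the laminin chain Lama1 fell by 1.65 (adjusted p = 4.18e-04) and Npnt, a ligand of integrins, by 1.38 (adjusted p = 5.93e-04). The laminin chains Lama2 and Lama4, named after their values were seen, had 0.71 and 0.43 (adjusted p = 0.0601 and 0.0774). The difference between the lists was not tested.

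**Figure D5:**
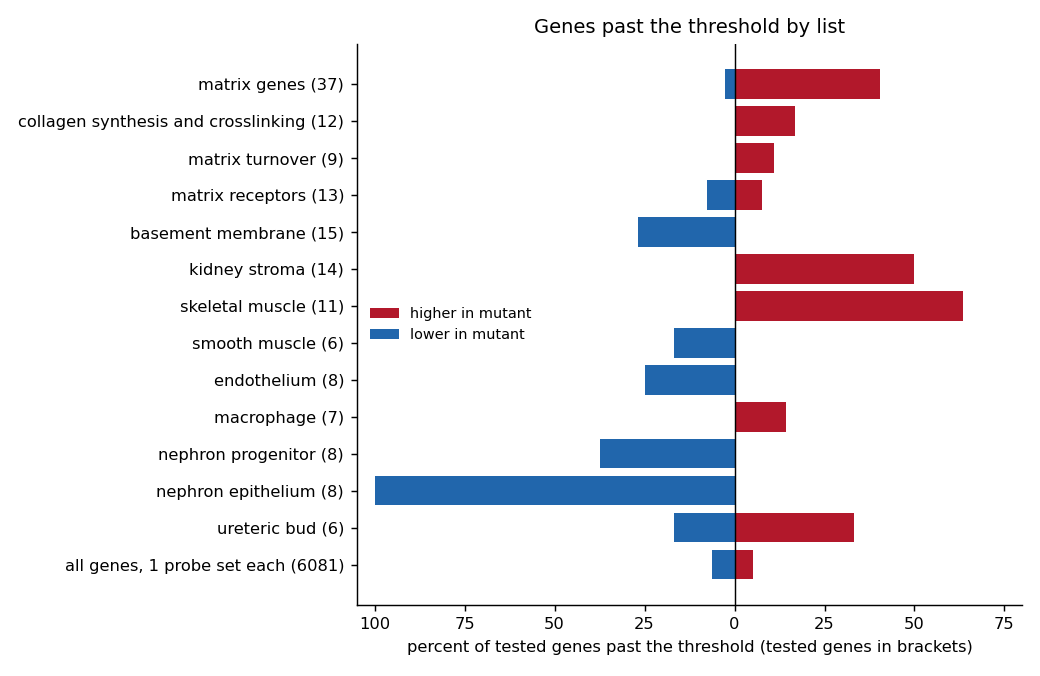
Percent of tested genes past the threshold in each list, higher in the mutant to the right and lower to the left, with the number tested in brackets. The matrix genes reach 40.5% and 2.70%, against 5.13% and 6.35% of all genes.

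Markers of several cell types moved beside the matrix genes. In whole kidneys, more cells of a type and more RNA per cell cannot be told apart. Of 14 stroma markers, 7 rose and none fell (1 was lower at an unadjusted p under 0.05), with a median of 0.73. Their summed signal ran from 30068 to 35129 on wild-type and from 47552 to 47949 on mutant arrays. Foxd1, the transcription factor of cortical stroma, read 1199 to 1528 in the wild type and 4692 and 4749 in the mutant, a rise of 1.75. Pdgfra, a receptor of mesenchymal cells, rose by 1.06. The secreted proteins Ntn1 and Smoc2 and the transcription factor Meis1 rose by 1.75, 1.43 and 1.33. Not all stroma markers did so. Pdgfrb had -0.68 (limma, adjusted p = 0.0713), with both mutant arrays below the wild type. Lef1, Snai2 and Tcf21 had -0.15, 0.02 and 0.13. The difference of Foxd1 was larger than that of 14 of the 15 matrix genes that rose, Mfap4 (1.82) being the exception. Whether more stroma accounts for the matrix genes was not tested.

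Skeletal muscle markers rose too: 7 of 11 tested were higher (63.6%), with a median of 1.45. None was lower by either adjusted or unadjusted p (limma), and 6 of 17 measured were too dim to test. Their summed signal was 2001 to 2681 in the wild type and 6502 and 6998 in the mutant. Tnnc1 rose by 2.76, Myl1 by 2.17, Actc1 by 2.05 and Myog, the myogenic transcription factor, by 1.76. Muscle and its surrounding connective tissue make type VI and other interstitial collagens, and the part of such tissue in the matrix genes was not tested. Cartilage markers were near the bottom of the range: 7 of 9 measured were not tested, among them Acan, the main cartilage proteoglycan (means of 20.2 and 31.1), and the other 2 did not pass, with a summed signal of 380 to 511 and 541 to 735. Of 3 tested tendon and bone markers, Scx, a tendon transcription factor, rose by 0.48 (limma, adjusted p = 0.0419) and the other 2 did not pass. The call is 33.3% of that list, which had a median of 0.05. In the smooth muscle list 1 of 6 (16.7%), Tagln, fell (by 1.32) and none rose by adjusted or unadjusted p (limma). The summed signal of that list was 2078 to 2585 in the wild type and 1754 to 1965 in the mutant. All 8 nephron epithelium markers fell, with a median of -2.73, as did 2 of 8 endothelial markers, Emcn by 0.63 and Eng by 0.58. The macrophage gene C1qb rose by 0.95 (limma, adjusted p = 0.0369), the only call among 7 tested (14.3%). The macrophage list had a median of 0.68, and at an unadjusted p under 0.05 (limma) 4 of the 7 were higher and none lower. Its summed signal was 1198 to 1666 in the wild type and 2034 to 2248 in the mutant. Of the nephron progenitor markers 3 of 8 fell (37.5%), and of the ureteric bud markers 2 of 6 rose (33.3%) and 1 fell (16.7%). Over all genes the shares were 5.13% higher and 6.35% lower. No marker of adrenal and gonad (3 tested), of adrenal medulla and nerve (3 tested) or of mesothelium (2 tested) was called by limma. At an unadjusted p under 0.05, 2, 1 and 1 of these were higher and none was lower. The part of any of these cells in the matrix genes was not tested.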

How the data were processed

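Linear probe set signals (intensity) on 6 arrays were taken as deposited. The authors made them with GCOS, per the submitters' processing notes. The version and settings were not stated. Without the lowest and highest 2% of values, each array averaged 500.27 to 500.29, so arrays were already scaled. The number of arrays limits the precision. Names came from the platform annotation, updated by gene identifier to RefSeq GRCm38.p6 (10817 of 10833 probe sets with 1 symbol matched). The 66 control probe sets were left out. Of 12422 probe sets, 7981 passed the filter. Each gene was read at the probe set with the highest mean log2(signal + 16). The test was limma 3.58.1 (R 4.3.3, lmFit and eBayes with a variance trend, no covariate), which was also tested on simulated data. With 4 arrays against 2, p-values set each difference against the spread between these pools, as moderated by eBayes. The 4 wild-type pools weigh more in that spread than the 2 mutant pools.

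The matrix genes, the gene lists and the rule for naming genes (all genes past the threshold, a fixed core of fibrillar and adhesive genes, and up to 4 called genes per other list) were chosen with earlier results of these data known. The alternatives were offsets of 1 and 64, no filter or a filter at the 60th percentile, quantile or median normalization, no variance trend, array weights, averaged probe sets, a replicate block, and leaving out arrays. The replicate numbers were not used as pairs: deviations of same-numbered arrays correlated at 0.00 and -0.02.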

Additional observations from a re-analysis of the deposited data

Results flagged for a closer look

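In 4 of the 37 tested matrix genes (10.8%), 1 wild-type array stood apart from the other 3, with a gap to its nearest neighbour of over 0.829 of the group's range. Chance alone flags about 1 in 20 groups of 4. For Lox (0.977), wild-type replicate 4 read 379 against 493 to 496 on the others, and for Col6a2 (0.865) it read 553 against 725 to 756. For Eln (0.849) the same array read 827 against 909 to 925. For Dcn (0.888), wild-type replicate 1 read 2594 against 2227 to 2265. Replicate 4 was the low array in 3 of the 4. Without replicate 4, Col6a2 (adjusted p = 0.00227) and Eln (0.0283) stayed past the threshold in limma, as did Dcn without replicate 1 (0.76, adjusted p = 0.00270). Lox, not called with all arrays (adjusted p = 0.170), had -0.48 without replicate 4 (limma, adjusted p = 0.0576).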

How the results depend on the processing

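Of the 16 matrix genes called, 7 (Fbln2, Mfap2, Postn, Vcan, Dcn, Lum and Col6a1) passed under all 17 alternatives, and each of the other 9 failed under at least 1. With single arrays left out, 9 to 15 matrix genes were higher and 0 to 1 lower, the median difference was 0.38 to 0.49, and over all probe sets 114 to 448 were higher and 188 to 553 lower, fewest without a mutant array; without wild-type replicate 1, 320 were lower. A fit with 1 mutant array assumes that it varies like the wild type. Without a variance trend 0 matrix genes were lower (2 at an unadjusted p under 0.05, limma). Filtering at the 60th percentile, which tests fewer genes, gave a median of 0.54, and array weights gave 613 probe sets higher and 738 lower. The cause was not tested for array weights or the variance trend. With the replicate number as a block, 14 matrix genes were higher and 1 lower, Eln being the call lost. In that fit the differences rest on replicates 1 and 2 alone, the only numbers with a mutant array. Sparc, never called, changed sign with array weights (-0.03), the replicate block (-0.11), without wild-type replicates 2 and 4 (-0.08) and without wild-type replicate 4 (-0.11, from a range of -0.11 to 0.10 with single arrays left out). Genes near the low end of signals (Fmod and the 8 not tested) are limited by signal over background. Mfap4 is limited by its scattered wild-type signals, from 84.2 to 288.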
